A study of Mus musculus with 6 samples.

Results

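Irf4, Irf8, Batf and Batf3 encode transcription factors that act as partners in activated lymphocytes, and their transcripts were followed here in CD8+ T cells. They were taken as every probe set whose platform symbol was exactly 1 of these 4 names, which gave 6 probe sets of 45037 and 4 genes of 18193. Irf4 and Irf8 had 2 probe sets each, of which the one with the higher mean over the 6 arrays was the main one, and Batf and Batf3 had 1 each. In the RefSeq annotation of GRCm38.p6, Irf4 lies at chr13:30749233-30766981, Irf8 at chr8:120736358-120756694, Batf at chr12:85686720-85709087 and Batf3 at chr1:191098414-191108943.

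The cells were naive splenic CD8+ T cells of C57/BL6 mice, either Nrdp1-/- or Nrdp1+/+ (wild type). The Nrdp1 protein, a ubiquitin ligase of the E3 class, is the product of Rnf41. Cells of each genotype were either untreated or given a stimulus of the T cell receptor and of CD28, its costimulatory partner. This was immobilized anti-CD3 (5 µg/ml) together with anti-CD28 in solution (1 µg/ml), given for 4 h or 8 h. The treatment label of the stimulated samples names anti-CD28 alone. Each of the 6 groups had 1 Affymetrix mouse 430 2.0 array, and neither the number of mice behind an array nor the cell types in which Nrdp1 was lost is given in the labels. A test over these arrays therefore has no replicates, and the times stand in for replicates of a genotype. Its spread is the departure of the arrays from the sum of a time effect and a genotype effect, which may be technical. A genotype difference that changes with time counts as spread there, unless a term for it is fitted. The number of arrays limits the precision. Fewer cells of a type and less RNA per cell cannot be told apart on such arrays.

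IRF4 and IRF8 are the lymphoid and myeloid members of the interferon regulatory factor family. They bind DNA weakly alone and are recruited by partners, either ETS factors such as PU.1 (Spi1) and SpiB (Spib) or the short bZIP factors BATF and BATF3, which pair with JUN proteins. In T cells IRF4 is made after antigen receptor signalling in an amount graded with signal strength, and together with BATF-JUN dimers it opens genes of effector differentiation and growth. IRF8 is best known from B cells, monocytes and dendritic cells, BATF3 from cross-presenting dendritic cells, and both are also found in activated CD8+ T cells.

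The deposited values are MAS5 signals, and the array medians lay between 61.5 and 68.6. All 7 T cell markers examined, Cd3e, Cd8a and Cd8b1 among them, were above the array median on all arrays. Of the CD4 helper cell markers, Cd4 and Foxp3 were below the array median on all arrays, but Zbtb7b was above it on 4. Zbtb7b had signals of 91.7, 63.9 and 106.7 in untreated, 4 h and 8 h Nrdp1-/- cells. In wild-type cells they were 9.53, 61.5 and 102. The RNA extraction text of the labels names whole colon, and 5 of 7 colon epithelial markers were below the array median on every array, whereas Epcam lay above it on all. The brightest of 4 probe sets for the targeted gene Rnf41 had Nrdp1-/- minus wild-type differences of -0.46 untreated, -0.21 at 4 h and -0.42 at 8 h on the log2 scale, and 2 of the 4 were lower at every time. No position was available for these probe sets, so they may lie outside the deleted sequence and then check nothing.

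Irf4 and Irf8 rose strongly at both times of stimulation, Batf rose by a small step at 4 h, and Batf3 lay below the median of its array on 5 of 6 arrays. Of the 3 members tested, 3 rose at 4 h, against 8.01% of the 10838 genes tested (limma on log2(signal + 4.45) with Benjamini-Hochberg adjustment over all of them, threshold 0.05). At 8 h 2 of 3 rose, against 9.88% of genes. The median change of the 3 was 3.16 at 4 h and 2.93 at 8 h, beside -0.05 and -0.07 over all genes tested. Signals of all 3 were higher on all 4 stimulated arrays than on both untreated ones, which held for 16.7% of genes. The 2 comparisons share the untreated arrays.

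**Figure D1:**
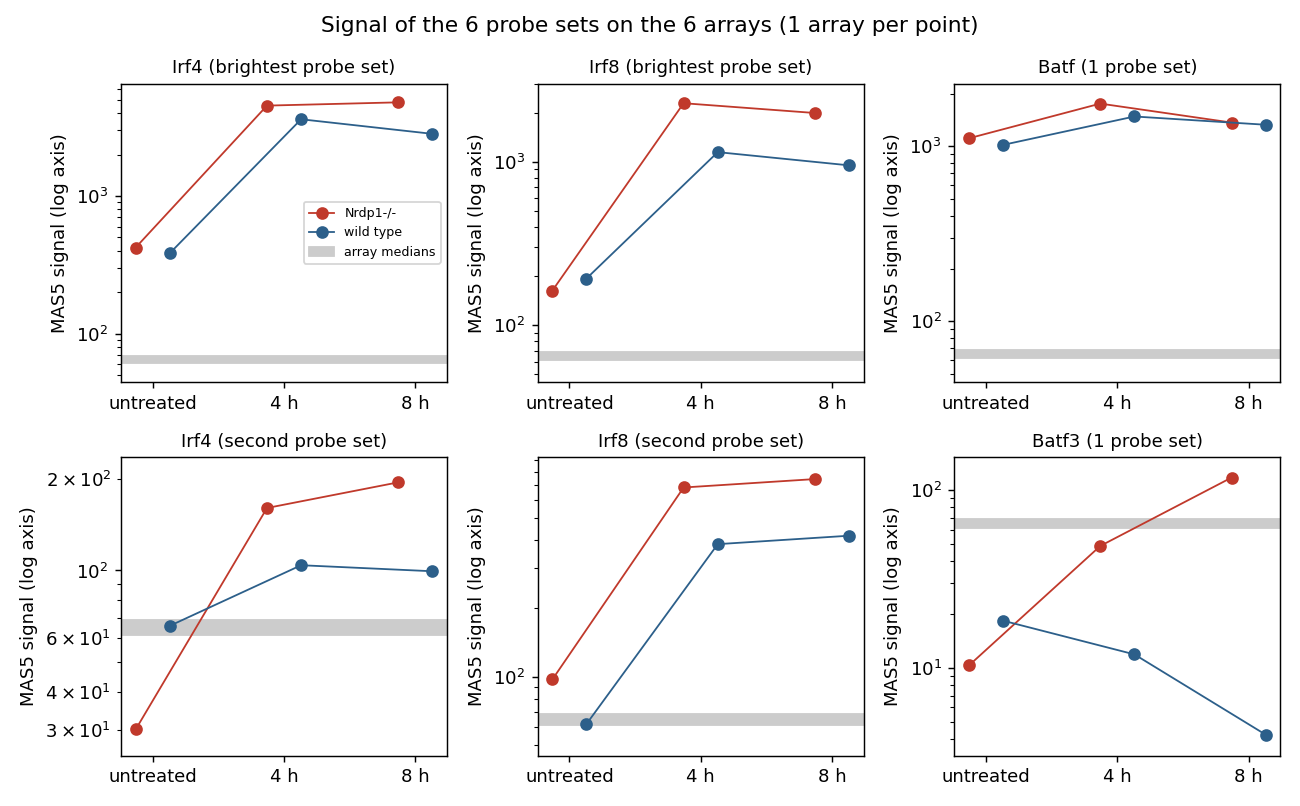
Signal (MAS5 units, log axis) of each of the 6 probe sets in untreated cells and at 4 h and 8 h of stimulation, 1 array per point, with Nrdp1-/- left of wild type and the range of the array medians as a grey band. Both Irf4 and both Irf8 probe sets were higher on every stimulated array than on the untreated array of the same genotype, Batf moved little, and Batf3 lay above the band only in Nrdp1-/- cells at 8 h.

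Irf4 encodes the factor whose dose sets the extent of CD8+ T cell expansion. Its main probe set had signals of 422, 4535 and 4791 in untreated, 4 h and 8 h Nrdp1-/- cells. In wild-type cells they were 384, 3610 and 2828. The untreated pair was close together, and all 4 stimulated arrays stood at least 7.36-fold above the untreated array of their genotype. Irf4 rose by 3.31 ± 0.14 on the log2 scale at 4 h (SE, 6 arrays, limma adjusted p = 1.10e-07), the place 21 from the top among 10838 genes. At 8 h it had risen by 3.18 ± 0.14 (limma adjusted p = 1.73e-07). The 8 h minus 4 h difference of -0.14 ± 0.14 was not called (limma adjusted p = 0.874). Of the 3 members 0 were called, against 0.0461% of genes, and 0 without the intensity trend. At an unadjusted p under 0.05 in limma were 1 of the 3, and 907 of all 10838 genes. For Irf4 the genotypes had opposite signs in this difference, at 0.08 in Nrdp1-/- cells and -0.35 in wild-type cells. Leaving out the 8 h wild-type array gave 0.13.

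The second Irf4 probe set lay within or below the range of the array medians in untreated cells. Its signals were 30.1, 160 and 195 in untreated, 4 h and 8 h Nrdp1-/- cells, against 65.8, 104 and 99.4 in wild-type cells. It was higher on every stimulated array than on both untreated ones. Its changes of 1.44 ± 0.48 at 4 h and 1.55 ± 0.48 at 8 h did not pass the threshold when every probe set was tested as a row of its own (limma adjusted p = 0.0970 and 0.0617), where 8.72% and 12.7% of 19961 probe sets did.

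Irf8 followed Irf4 closely. Its main probe set had signals of 163, 2286 and 1992 in untreated, 4 h and 8 h Nrdp1-/- cells. In wild-type cells they were 193, 1147 and 952. The 2 stimulated Nrdp1-/- arrays were the highest and the 2 untreated arrays the lowest, with no overlap between untreated and stimulated cells. Irf8 rose by 3.16 ± 0.25 at 4 h (limma adjusted p = 1.44e-05) and by 2.93 ± 0.25 at 8 h (limma adjusted p = 2.34e-05). By array the step was 3.77 at 4 h and 3.58 at 8 h in Nrdp1-/- cells, against 2.54 and 2.28 in wild-type cells. Without the untreated Nrdp1-/- array the change was 2.53 at 4 h and 2.29 at 8 h. In that fit limma gave infinite prior degrees of freedom, so a call there does not rest on the spread of Irf8. Without the intensity trend in the estimate of the spread, neither change of Irf8 passed (limma adjusted p = 0.0643 and 0.0635), while both changes of Irf4 did.

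The second Irf8 probe set moved in the same direction. Its signals were 97.4, 681 and 742 in untreated, 4 h and 8 h Nrdp1-/- cells and 62.0, 384 and 418 in wild-type cells. It rose by 2.65 ± 0.18 at 4 h and 2.77 ± 0.18 at 8 h (limma over probe sets, adjusted p = 2.17e-05 and 1.64e-05). Between 8 h and 4 h the 2 Irf8 probe sets had differences of opposite sign, -0.23 ± 0.25 for the main one and 0.12 ± 0.18 for the second, and neither passed the threshold, as 0.015% of probe sets did.

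Batf encodes the short bZIP factor that brings IRF4 to composite sites with JUN proteins. It was already well above the array median in untreated cells, at 1111 in Nrdp1-/- and 1019 in wild-type cells. At 4 h its signal was 1754 in Nrdp1-/- and 1480 in wild-type cells, and at 8 h 1366 and 1328 in the same order of genotypes. The groups did not overlap, but the step was small beside those of Irf4 and Irf8. Batf rose by 0.60 ± 0.12 at 4 h (limma adjusted p = 0.00621), the place 840 from the top of 10838 genes. At 8 h its change of 0.34 ± 0.12 was not called (limma adjusted p = 0.0630), but it passed without either of the 4 h arrays or with a stricter filter on dim genes. The difference between 8 h and 4 h was -0.26 ± 0.12 (limma adjusted p = 0.586), and negative in both genotypes. Without the intensity trend the 4 h change did not pass (limma adjusted p = 0.106).

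Batf3, the close relative of Batf, was near the bottom of the measured range. Its signals were 10.3, 48.5 and 118 in untreated, 4 h and 8 h Nrdp1-/- cells, against 18.4, 11.9 and 4.22 in wild-type cells. Only the 8 h Nrdp1-/- array reached its array median, so the gene did not enter the test. The 3 wild-type values and the other two Nrdp1-/- values lay below the array median, and no direction is read from them. Set against the array median in place of the wild-type value, the 8 h Nrdp1-/- signal was at least 1.80-fold higher. With no filter on dim genes, where 18193 genes were tested, the Nrdp1-/- minus wild-type difference was 1.63 ± 0.79 and was not called (limma adjusted p = 0.454), nor was the interaction of 3.384 ± 1.496 (limma adjusted p = 1.00).

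**Figure D2:**
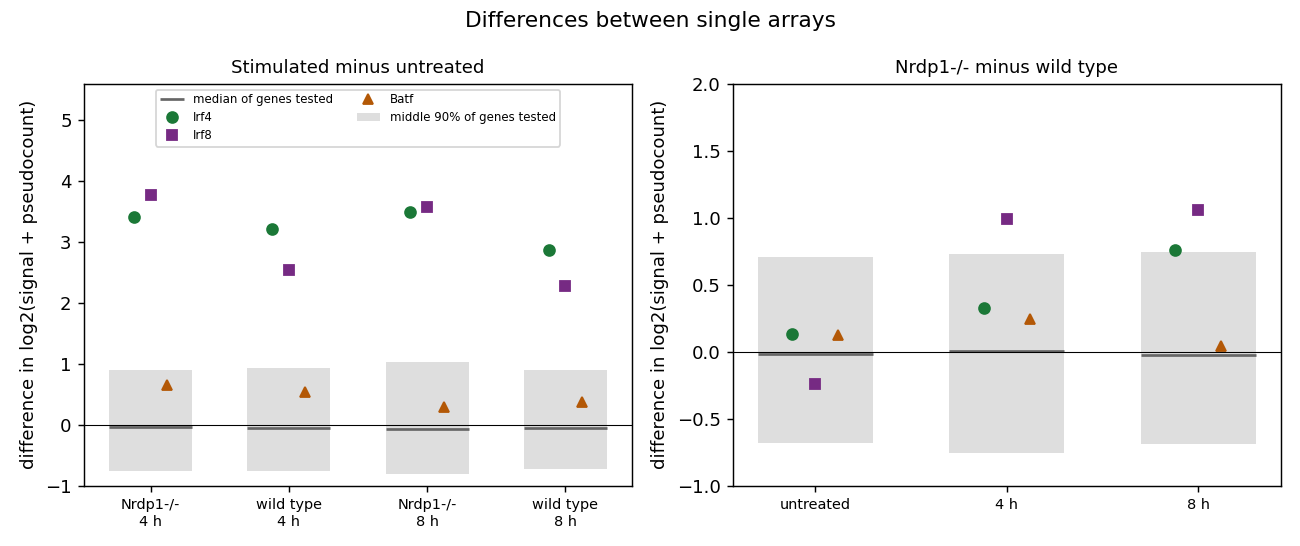
Differences between single arrays in log2(signal + 4.45) for Irf4, Irf8 and Batf, beside the middle 90% (bars) and median (lines) of the 10838 genes tested, with stimulated minus untreated cells on the left and Nrdp1-/- minus wild type at each time on the right. Irf4 and Irf8 stood far above the bars after stimulation in both genotypes. Between genotypes Irf8 stood above them at 4 h and 8 h but below 0 in untreated cells, and Irf4 stood just above the bar at 8 h.

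Because Irf4 and Irf8 moved together, the sequence before their starts is shown beside that of Batf, which moved little. The 250 bases upstream of the RefSeq start in GRCm38.p6 are given 5′ to 3′ on the plus strand, at chr13:30748983-30749232 for Irf4, chr8:120736108-120736357 for the first of 2 Irf8 starts and chr12:85686470-85686719 for Batf. Capitals mark matches of TATAAA on the gene's strand with its first base 45 to 20 bases before the start, and of TTCNNNGAA, the letters of a STAT-binding GAS element, which reads the same on both strands.
Irf4: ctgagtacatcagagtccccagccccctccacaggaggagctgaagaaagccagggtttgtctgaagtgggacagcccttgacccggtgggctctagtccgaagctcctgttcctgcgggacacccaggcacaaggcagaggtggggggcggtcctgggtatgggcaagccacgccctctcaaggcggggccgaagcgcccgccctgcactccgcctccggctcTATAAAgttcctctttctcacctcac
Irf8: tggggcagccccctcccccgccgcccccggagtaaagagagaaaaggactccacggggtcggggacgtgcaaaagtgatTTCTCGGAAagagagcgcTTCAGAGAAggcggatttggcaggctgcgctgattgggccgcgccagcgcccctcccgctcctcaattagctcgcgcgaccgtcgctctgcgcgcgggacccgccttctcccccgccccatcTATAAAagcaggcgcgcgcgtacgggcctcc
Batf: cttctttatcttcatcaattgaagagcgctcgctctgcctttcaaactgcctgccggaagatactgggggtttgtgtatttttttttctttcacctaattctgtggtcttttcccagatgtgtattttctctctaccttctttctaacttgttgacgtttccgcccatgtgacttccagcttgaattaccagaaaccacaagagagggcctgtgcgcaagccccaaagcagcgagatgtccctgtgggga
TATAAA began 26 bases before the Irf4 start and 31 bases before the first Irf8 start, a window that holds it in 2.14% of 32851 promoters of the same length. It was not matched there in Batf, Batf3 or the second Irf8 start. Counting the base before the start as -1, TTCNNNGAA began at -171 and -153 before the first Irf8 start and at -239 before the Batf3 start, and 7.02% of promoters hold it. Over both strands, the AP-1 letters TGANTCA (6.75% of promoters), the cyclic AMP response element TGACGTCA (1.55%), the interferon response letters GAAA and GAAA with any 2 bases between (2.98%), the ETS-IRF letters GGAA and GAAA with any 2 bases between (2.30%), the NF-kB letters GGGA and TTTCC with any 1 base between (0.36%) and the NFAT letters TGGAAA (18.6%) had no match in any of the 5 windows. The letters were chosen with the sequences in view, and a match is no measured binding site. The share of G and C was 63.6% before Irf4, 67.2% before the first Irf8 start, 46.4% before Batf and 76.0% before Batf3, against a median of 52.4% over all promoters.

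Irf4, Irf8 and Batf were not called between genotypes over the 3 times. Of the 3 members tested, 0 differed past the threshold over the 3 times in limma, against 5.05% of genes called. Without the intensity trend 0 of 3 did. At an unadjusted p under 0.05 in limma were 2 of the 3, and 1791 of all 10838 genes. Irf4 differed by 0.41 ± 0.12 (limma adjusted p = 0.0815), Irf8 by 0.60 ± 0.21 (limma adjusted p = 0.152) and Batf by 0.14 ± 0.09 (limma adjusted p = 0.536). All 3 were higher in Nrdp1-/- cells at both stimulated times, as were 26.5% of genes, and Irf4 and Batf were so at all 3 times, as were 17.4%.

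Taken by time, Nrdp1-/- minus wild-type differences of Irf4 were 0.13 (untreated), 0.33 (4 h) and 0.76 (8 h). Those of Irf8 were -0.24, 0.99 and 1.06, and those of Batf 0.12, 0.24 and 0.04. The Irf8 differences at 4 h and 8 h exceeded those of 96.8% and 97.3% of genes, while in untreated cells Irf8 exceeded 20.0%. The 4 stimulated arrays alone gave 0.54 ± 0.13 for Irf4 and 1.03 ± 0.14 for Irf8, both past the threshold (limma adjusted p = 0.00183 and 1.11e-10). In that fit limma gave infinite prior degrees of freedom, and its p-values rest on the intensity trend and not on the spread of these genes. Leaving out either untreated array gave the same differences by construction.

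The change of the genotype difference with stimulation was tested directly. For Irf8 the difference in stimulated cells exceeded that in untreated cells by 1.27 ± 0.28 (limma interaction, adjusted p = 0.00483), and 0.221% of genes were called. Irf4 had 0.41 ± 0.24 (adjusted p = 1.00) and Batf 0.02 ± 0.25 (adjusted p = 1.00) in the same limma test. This test had 1 residual degree of freedom and infinite prior degrees of freedom, and no array could be left out of it. With the spread of the additive model in its place the Irf8 value did not pass (limma adjusted p = 0.999), nor did it after quantile normalization, median centring or without the trend (limma adjusted p = 0.0940, 0.151 and 0.759). It lost its call in 6 of 10 alternatives.

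The second Irf8 probe set had Nrdp1-/- minus wild-type differences of 0.82 at 4 h and at 8 h. In untreated cells its signal was 97.4 in Nrdp1-/- cells, above the array median. In wild-type cells it was 62.0, below that array's median of 65.0, which gives no exact difference. It was thus higher in untreated Nrdp1-/- cells, the opposite direction to the main probe set (-0.24). Over the 3 times it was higher by 0.75 ± 0.15 (limma over probe sets, adjusted p = 0.0209), where 3.48% of probe sets were called, and its interaction of 0.21 ± 0.37 did not pass (limma adjusted p = 1.00, 0.0601% of probe sets called). Both fits use that dim wild-type value. With both probe sets averaged, Irf8 had an interaction of 0.74 that did not pass (limma adjusted p = 1.00). The second Irf4 probe set had differences of 0.60 at 4 h and 0.94 at 8 h, with untreated signals of 30.1 in Nrdp1-/- and 65.8 in wild-type cells beside array medians of 65.0 on both.

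Markers of other cells moved with genotype. B cells and myeloid cells both express Irf8, and plasma cells express Irf4. The summed signal of 13 B cell markers was 3331, 3051 and 3038 in untreated, 4 h and 8 h Nrdp1-/- cells. In wild-type cells it was 16466, 14140 and 14703. Of the 10 tested, limma called 9 lower and 0 higher in Nrdp1-/- cells, with a median difference of -1.94. Among all genes, 5.05% were called in either direction. The summed signal of 12 myeloid markers was 13110, 8414 and 2874 in Nrdp1-/- cells and 1820, 1824 and 1766 in wild-type cells at the same times. Of the 11 tested, limma called 6 higher and 0 lower in Nrdp1-/- cells, with a median difference of 1.59. In Nrdp1-/- cells the myeloid sum was highest in untreated cells, where the main Irf8 probe set was at 163 and the second at 97.4. Untreated wild-type cells had the highest B cell sum of the 6 arrays. There the main Irf8 probe set was at 193 and the second at 62.0.

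Of 5 plasma cell markers, summed to 22071, 16396 and 14816 in Nrdp1-/- cells and to 11675, 10242 and 10077 in wild-type cells, Jchain and Xbp1 were higher and Mzb1 lower in Nrdp1-/- cells. Of 7 dendritic cell markers, summed to between 500 and 652 in Nrdp1-/- cells and between 1055 and 1146 in wild-type cells, 3 were below the array median on all arrays, including Xcr1 and Flt3. Itgax was higher and Wdfy4 lower in Nrdp1-/- cells. Wdfy4 alone held most of the wild-type sum, at 871, 771 and 698 in untreated, 4 h and 8 h cells. In Nrdp1-/- cells it was at 227, 195 and 202. The summed signal of T cell markers lay between 62459 and 72724 in Nrdp1-/- and between 67547 and 74933 in wild-type cells. No marker was listed at 0. The part of these cells in the genotype differences of Irf4, Irf8 and Batf3 was not tested.

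**Figure D3:**
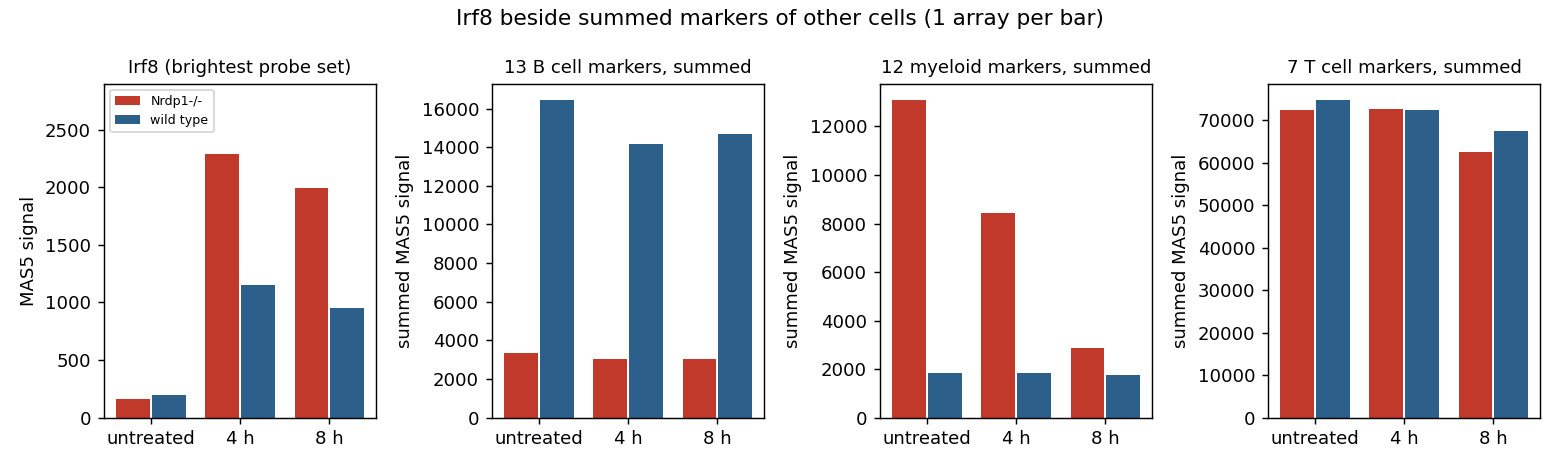
Signal of the main Irf8 probe set and summed signals of 13 B cell, 12 myeloid and 7 T cell markers (MAS5 units, 1 array per bar), with Nrdp1-/- left of wild type at each time. Irf8 was high on the stimulated arrays of both genotypes, the B cell sum was higher in wild-type cells at all times, and the myeloid sum was highest in untreated Nrdp1-/- cells.

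The other interferon regulatory factors had smaller changes than Irf4 and Irf8. Of 6 tested, 3 rose at 4 h and 4 at 8 h, with 0 fallen and a median change of 0.38 and 0.63. Of all genes, 8.01% rose at 4 h and 9.88% at 8 h. Irf1, an early interferon-induced activator, rose by 1.81 ± 0.10 at 4 h and 1.61 ± 0.10 at 8 h. Irf9, the DNA-binding subunit of the interferon-activated ISGF3 complex, rose by 1.14 ± 0.12 at both times. Irf2 rose by 0.46 ± 0.11 and 0.44 ± 0.11, and Irf7, the amplifier of type I interferon, rose at 8 h (0.82 ± 0.20) but had 0.29 ± 0.20 at 4 h. Irf3 (-0.01 at 4 h) and Irf5 (0.16) did not pass the threshold at either time. By genotype limma called 0 of the 6, against 5.05% of all genes, and it also called 0 of the 6 without the intensity trend. At an unadjusted p under 0.05 in limma were 1 of the 6, and 1791 of all 10838 genes. Without that trend 1 of the 6 was called at either time of stimulation. Of 3 corepressors that bind IRF2, Irf2bpl fell at 4 h (-0.44 ± 0.11) and 8 h (-0.42 ± 0.11) and the other two did not pass. With the probe sets of Irf2bpl averaged, its 8 h change was 0.18 and neither call was kept, nor was its 4 h call after median centring.

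Among the ETS partners, Ets2 rose at 4 h (0.83 ± 0.14) and was the only 1 of 4 called there, while 8.01% of all genes rose. At 8 h limma called 0 of the 4, against 2075 of all 10838 genes, and 0 of the 4 without the intensity trend. At an unadjusted p under 0.05 in limma were 2 of the 4 at 8 h, and 3513 of all genes. Averaged over its probe sets, Ets2 had 0.48 at 4 h and was not called. Spib, the SpiB partner of IRF4 and IRF8 in B cells, had signals of 117, 99.3 and 83.1 in untreated, 4 h and 8 h Nrdp1-/- cells and 841, 691 and 581 in wild-type cells. It was lower in Nrdp1-/- cells (-2.76 ± 0.15), beside the B cell markers above, and was the 1 of 4 called by genotype, against 5.05% of genes. Spi1, which encodes PU.1, lay between 21.7 and 93.5, around the array median.

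Most bZIP partners and relatives of BATF that were tested rose at 4 h. Of 7 tested, 5 rose at 4 h and 4 at 8 h, with 0 fallen, while 8.01% and 9.88% of all genes rose. Jun rose by 1.70 ± 0.18 at 4 h and 1.93 ± 0.18 at 8 h, and Junb, the JUN protein most often found with BATF in T cells, rose by 0.90 ± 0.14 and 0.55 ± 0.14. Fos, which competes with BATF for JUN, rose by 2.44 ± 0.17 and 1.79 ± 0.17. Atf3 rose by 1.47 ± 0.25 and 1.66 ± 0.25, and Fosl2 rose at 4 h (0.88 ± 0.18). Jund did not pass at either time (-0.06 at 4 h). Jun (0.70 ± 0.15) and Fos (1.30 ± 0.14) were higher in Nrdp1-/- cells over the 3 times, though with probe sets averaged Jun was not called between genotypes (0.63), nor Fosl2 at 4 h (0.88). Without the intensity trend 1 of the 7 was called at either time and 0 by genotype. Batf2, Fosb and Fosl1 did not enter the test, and Batf2 was below the array median on all arrays.

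Among the signals that act on Irf4 and Irf8, 5 of 9 tested rose and 2 fell, at 4 h and again at 8 h. Of all 10838 genes, 8.01% rose at 4 h and 9.88% at 8 h. Called in either direction were 1465 genes at 4 h and 2075 at 8 h. Rel, the NF-kB subunit that activates Irf4 in lymphocytes, rose by 1.03 ± 0.20 at 4 h and 0.77 ± 0.20 at 8 h. Nfkb2 rose by 1.76 ± 0.15 and 1.16 ± 0.15, Relb by 1.43 ± 0.11 and 0.83 ± 0.11, and Stat5a by 0.99 ± 0.14 and 1.29 ± 0.14. Stat3 rose at both times as well (0.83 ± 0.15 at 4 h). Nfatc2 (-0.65 ± 0.14 at 4 h) and Stat5b (-0.35 ± 0.10) fell at both times. With probe sets averaged, neither was called, and Stat5b had the opposite sign at 4 h (0.14). After median centring Stat5b was not called at 4 h. Rela and Nfatc1 did not pass. By genotype limma called 0 of the 9, with or without the intensity trend, against 5.05% of all genes with it. At an unadjusted p under 0.05 in limma were 2 of the 9, and 1791 of all 10838 genes. Without that trend 2 of the 9 were called at 4 h and 0 at 8 h. Of 3 tested genes for proteins that act on IRF4, Fkbp4, an immunophilin, rose by 0.59 ± 0.14 and 0.71 ± 0.14, and Def6 fell at 4 h (-0.42 ± 0.12). Neither gene was called with the mean of probe sets in place of the brightest one, nor Def6 after median centring. Def6 has 1 probe set, so averaging left its own values unchanged and only the fit over all genes differed. Swap70, the third of these and also a B cell gene, was lower in Nrdp1-/- cells (-1.53 ± 0.11).

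**Figure D4:**
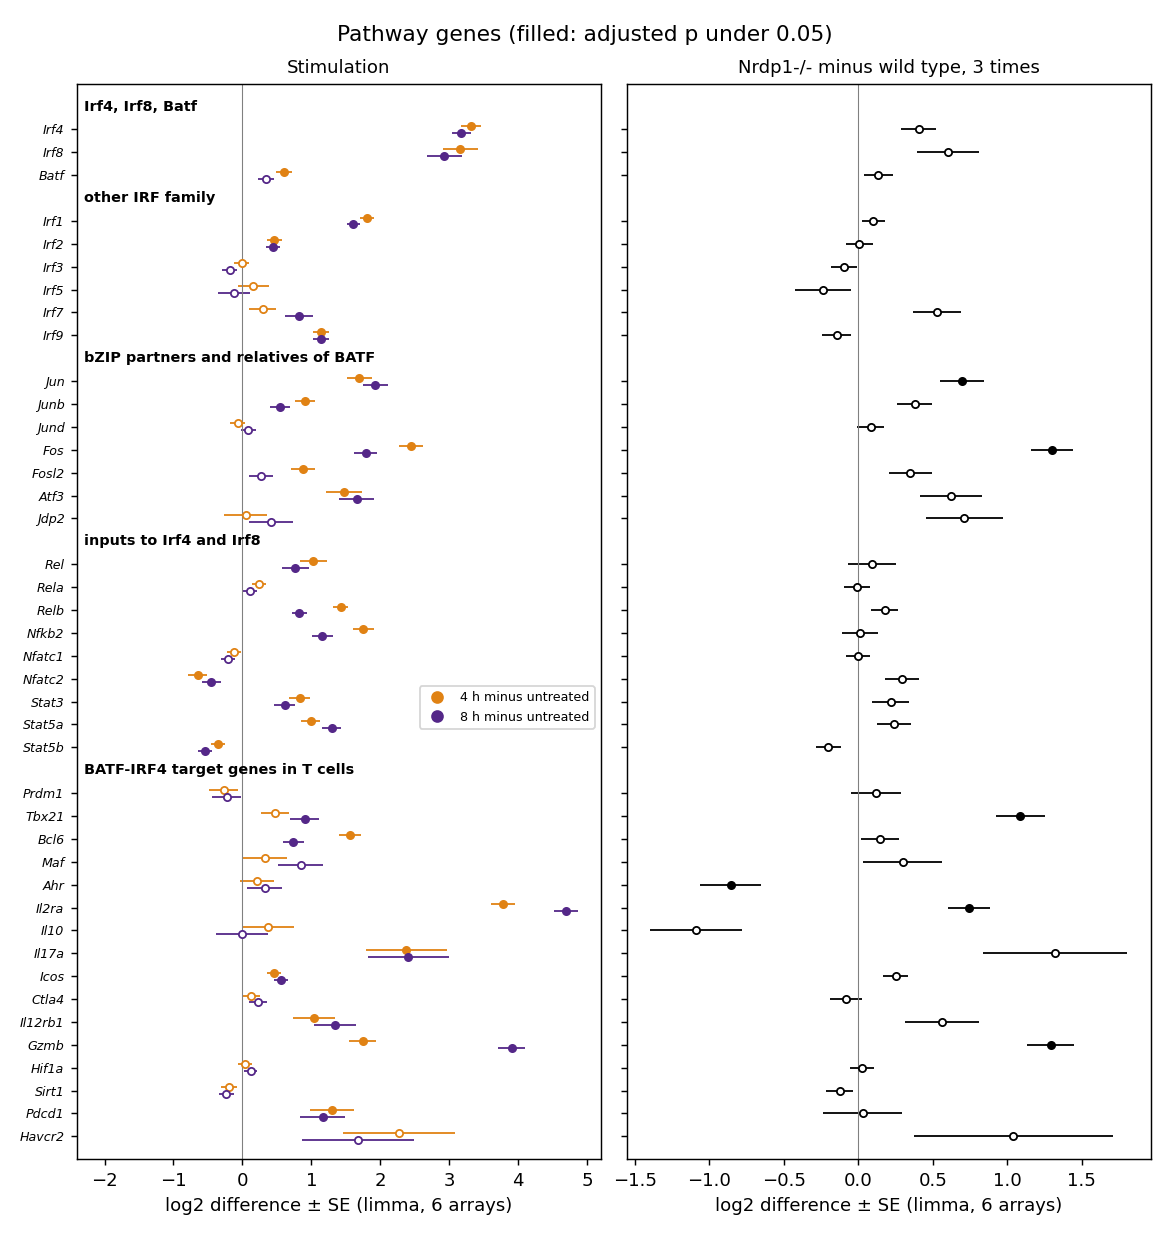
Log2 differences ± SE (limma, 6 arrays) of 41 tested genes around Irf4, Irf8 and Batf, for 4 h and 8 h minus untreated on the left and Nrdp1-/- minus wild type on the right, with filled points past an adjusted p of 0.05. Irf4 and Irf8 had the largest changes of the plot at 4 h after Il2ra, and Fos, Jun, Tbx21, Il2ra and Gzmb were filled above 0 between genotypes.

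Genes known as targets of BATF and IRF4 in T cells of one kind or another were examined next. Of 16 tested, 7 rose at 4 h and 8 at 8 h, with 0 fallen, and the median change was 0.46 and 0.79. The shares of all genes that rose were 8.01% and 9.88%. Il2ra, Il17a, Pdcd1 and Havcr2 were below the array median in untreated cells of both genotypes and entered the test only through stimulated arrays. Genes kept in this way could hardly be called fallen, and all of these but Havcr2 are among those that rose at both times. Il2ra, which encodes the alpha chain of the IL-2 receptor, lay below the array median in untreated cells and rose at least 9.60-fold at 4 h and at least 18.1-fold at 8 h. Granzyme B, a protease of cytotoxic granules encoded by Gzmb, rose by 1.74 ± 0.19 at 4 h and 3.91 ± 0.19 at 8 h, and was the 1 called of the 16 between 8 h and 4 h. Bcl6, a repressor that opposes Blimp-1, rose by 1.56 ± 0.16 and 0.74 ± 0.16. Il17a, below the array median in untreated cells, rose at least 1.37-fold at 4 h and at least 1.40-fold at 8 h over both genotypes. Its signals were 149 and 125 in Nrdp1-/- cells at 4 h and 8 h, against 54.4 and 68.0 in wild-type cells, where the first was below and the second near the array median. Tbx21, which encodes T-bet, rose at 8 h (0.90 ± 0.20). Icos and Il12rb1 rose at both times, as did Pdcd1, which encodes PD-1 and lay below the median in untreated cells (at least 2.37-fold at 4 h).

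Other targets did not pass. Prdm1, which encodes Blimp-1 and is a much studied target of IRF4, had -0.27 ± 0.21 at 4 h and -0.23 ± 0.21 at 8 h. Hif1a had 0.04 ± 0.10 and Ctla4 0.12 ± 0.13 at 4 h. Between genotypes Gzmb (1.29 ± 0.16), Tbx21 (1.09 ± 0.17) and Il2ra (0.75 ± 0.14) were higher and Ahr (-0.86 ± 0.20) was lower in Nrdp1-/- cells, 4 of 16 against 5.05% of all genes, and Ahr was not called with its probe sets averaged (-0.73). Without the intensity trend 1 of the 16 rose at 4 h, 3 rose at 8 h and 0 differed between genotypes.

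The genes whose log2 values lay closest to those of each member over the 6 arrays were found by the root-mean-square difference after centring each gene. The closest to Irf4 was Mir155hg, the host gene of miR-155, at 0.16 log2 units, followed by Tnfrsf9 (4-1BB) at 0.22, Irf8 at 0.26, Irgm1 at 0.29 and Cd83 at 0.30. Mir155hg had signals of 109, 970 and 990 in untreated, 4 h and 8 h Nrdp1-/- cells and 73.4, 775 and 527 in wild-type cells, so like Irf4 it was lower at 8 h than at 4 h in wild-type cells alone. The closest gene to Irf8 of all 10837 others was Irf4, followed by Mir155hg at 0.30, Tnfrsf9 at 0.35, Cd274 (PD-L1) at 0.35 and Cd83 at 0.35. The median distance of all genes was 1.59 from Irf4 and 1.54 from Irf8.

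Batf lay at 1.33 from Irf4, the place 990 among 10837 genes. Its own closest genes were Zc3h12d, an RNase of the Regnase family, at 0.04, Nfkbia, the feedback inhibitor of NF-kB, at 0.04, Rfc1 at 0.06, Ly6e at 0.07 and Pdxp at 0.07. Their signals were likewise highest at 4 h in Nrdp1-/- cells, as with Nfkbia at 32189 there against 26323 in wild-type cells. Distances from Batf are small for many genes, with 3814 within 0.3.

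**Figure D5:**
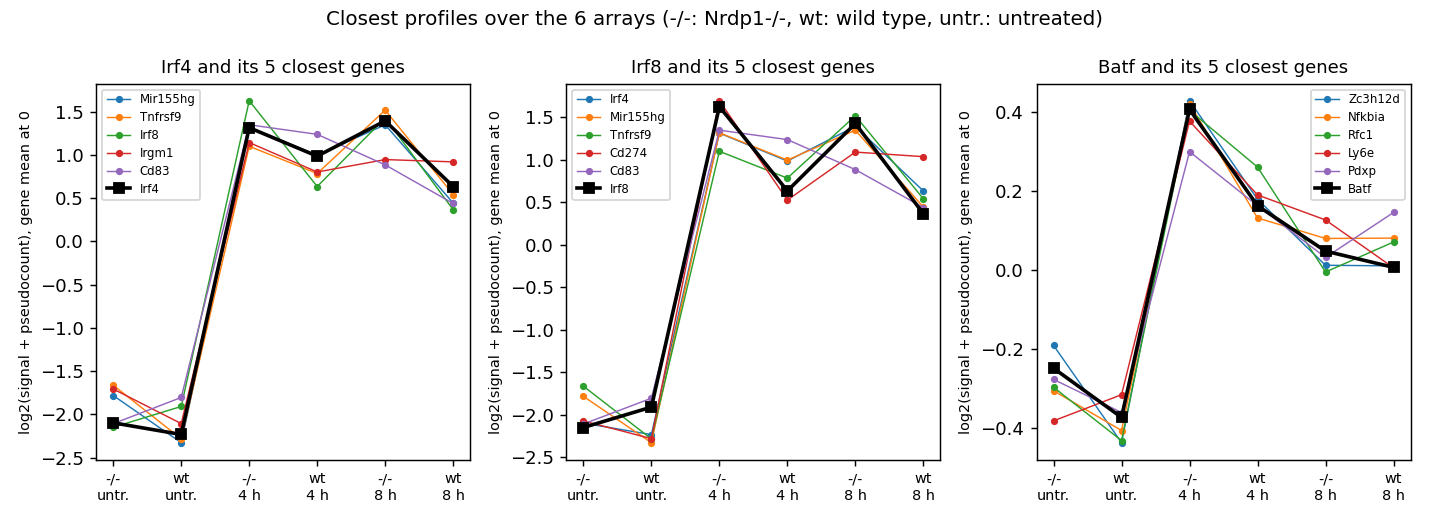
Log2(signal + 4.45) with each gene's mean set to 0, over the 6 arrays (Nrdp1-/- left of wild type at each time), for Irf4, Irf8 and Batf (black) and the 5 genes closest to each (colours). Irf4 and Irf8 appear in each other's panel, and the Batf panel spans a range of under 1 log2 unit.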

How the data were processed

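The deposited intensity values are MAS5 signals, per the submitters' processing notes, which give no MAS5 version. The mean signal without the lowest and highest 2% was 500.0 on every array. Of 45101 probe sets, 64 controls were left out, and 34945 had 1 symbol, 932 several and 9160 none in the platform annotation. The brightest probe set by mean over the 6 arrays stood for a gene. Values were taken as log2(signal + 4.45), the 10th percentile of all deposited intensities, a scale that understates changes of dim genes. Genes at or above the array median on at least 2 arrays were kept.

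limma 3.58.1 in R 4.3.3 (lmFit, eBayes with an intensity trend, Benjamini-Hochberg) was fitted with time and genotype as additive terms (2 residual and 8.99 prior degrees of freedom), and with a genotype-by-stimulation term for the interaction. The tests were tried on simulated data with independent normal noise of the fitted spread, which cannot check whether that spread holds for the real arrays. Members and gene lists were chosen with earlier results of these data known. Named were the members, genes of the pathway lists called in limma (at most 4 a direction) and the 5 closest profiles of each member, while Fosl2, Stat3, Icos, Pdcd1, Spi1, single marker genes and listed genes that were not called were named after their values were seen. Promoter sequences are from RefSeq (GRCm38.p6). A fold from a level below the array median is a bound against that median. Alternatives were other normalization, pseudocounts, filters, probe set summaries, no trend, and each array left out.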

Additional observations from a re-analysis of the deposited data

Results flagged for a closer look

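In the direct limma test of the difference, the genotype difference of the main Irf8 probe set in stimulated cells exceeded that in untreated cells by 1.27 on the log2 scale (adjusted p = 0.00483), and the call was lost in 6 of 10 alternatives. With the spread of the additive model the adjusted p was 0.999, and with both probe sets averaged the value was 0.74 (limma adjusted p = 1.00). The second Irf8 probe set had 0.21 in the same test over probe sets and was not called.

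The single-array log2 differences of Batf3 from untreated cells had opposite signs in the 2 genotypes, at 1.84 (4 h) and 3.04 (8 h) in Nrdp1-/- cells and -0.48 (4 h) and -1.40 (8 h) in wild-type cells. Of the 6 signals behind them 5 lay below the array median, so these values show no direction in wild-type cells. With no filter on dim genes, limma over the 6 arrays gave an interaction of 3.384 ± 1.496 (unadjusted p = 0.0237, adjusted p = 1.00), which was not called.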

How the results depend on the processing

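Irf4 at 4 h and 8 h kept its call under all 15 alternatives (lowest 2.38 and 2.36, with probe sets averaged). Without the untreated Nrdp1-/- array limma gave infinite prior degrees of freedom, so that call does not rest on the spread of Irf4. Without the intensity trend Irf8 (3.16 at 4 h, 2.93 at 8 h) and Batf (0.60 at 4 h) lost their calls. Batf at 8 h was called with a filter at the 70th percentile (0.34) and without either 4 h array, and ranged from 0.27 to 0.41 with 1 array left out. The 8 h minus 4 h difference ranged from -0.40 to 0.13 for Irf4 and from -0.58 to 0.11 for Irf8 (0.06 without the 4 h Nrdp1-/- array), with no call. Nrdp1-/- minus wild type ranged from 0.23 to 0.54 for Irf4 and from 0.38 to 1.03 for Irf8, highest in each case without an untreated array. On stimulated arrays alone it was 0.54 and 1.03. The Irf8 interaction lost its call with quantile normalization (1.28), median centring (1.29), averaged probe sets (0.74), every probe set tested (1.27), no trend (1.27) and the additive spread (1.27). Batf3 at 8 h minus 4 h was -0.025 with a pseudocount of 1. The cause was not tested.

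Genes called at 4 h numbered 1465, against 891 with averaged probe sets, 87 without the trend and 791 to 2007 with 1 array left out. At 8 h they numbered 2075, against 1163, 108 and 1049 to 2863. Between 8 h and 4 h there were 5, against 40 with median centring, 11 with the 30th percentile as pseudocount, 3 with averaged and 3 with all probe sets, 0 without the trend and 37 to 124 with 1 array left out. By genotype there were 547, against 356 with averaged probe sets and 99 without the trend. The interaction had 24, against 8 with quantile normalization, 13 with median centring, 12 with every probe set and 0 with averaged probe sets, without the trend or with the additive spread (406 at an unadjusted p under 0.05 in limma).

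No paired analysis was possible because the labels give no replicate numbers and each group had 1 array. The interaction had no residual degrees of freedom left with 1 array removed. Signal over background limits Batf3, the second Irf4 probe set and, in untreated wild-type cells, the second Irf8 probe set.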
